A study of Rattus norvegicus with 6 samples.

Results

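Phosphate handling by the rat renal cortex was examined through 10 genes: the sodium-phosphate cotransporters Slc34a1, Slc34a3, Slc20a1 and Slc20a2, the hormone receptors Pth1r, Kl, Fgfr1 and Vdr, and the vitamin D hydroxylases Cyp27b1 and Cyp24a1. They were chosen by name, with earlier results of these data known, and all 10 were found among the 31179 genes tested. The RNA came from 6 male Sprague-Dawley rats (Crl:CD(SD)), 5 weeks old when bought, with 1 single-colour Agilent array for each animal. For 4 weeks 3 rats received corn oil, the vehicle, and 3 received benzyl acetate at 1000 mg/kg/day, a fragrance ester that the body hydrolyses and turns into benzoic acid. Bulk cortex holds many cell types, so fewer cells of a type and less RNA per cell cannot be told apart.

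Filtered phosphate is recovered mainly in the proximal tubule, where cotransporters in the brush border carry it inward with sodium. Parathyroid hormone and the bone hormone FGF23 remove these cotransporters from the membrane, and FGF23 needs the co-receptor klotho to bind its receptor. FGF23 also lowers the making of active vitamin D and raises its breakdown, while parathyroid hormone raises its making, so that renal phosphate uptake and vitamin D activation are controlled together.

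None of the 10 genes passed the test between benzyl acetate and vehicle. In limma, 0 of the 10 had an adjusted p under 0.05, as did 0 of all genes (0%), and at an unadjusted p under 0.05 the count was 0 of 10 against 6.74% of all genes. Estimated differences for 9 of the 10 lay between -0.11 and 0.082 log2, and the 95% intervals of these 9 stayed inside a 1.5-fold difference in either direction. The same was true of 73.9% of all genes. The exception was Cyp24a1, whose level varied over a 4.39-fold range between animals. Of the 10 genes, 7 had a difference below 0, against 46.0% of all genes, and the median was -0.030 log2 against 0.012 for all genes. All genes here include array entries without a gene symbol. Of the 12276 with a symbol, 6090 had a difference below 0, and their median was 0.0014 log2. In that set 675 had an unadjusted limma p under 0.05, 1455 had groups that did not overlap, and 77.1% had intervals inside 1.5-fold.

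Each level below is a log2 signal after subtraction of the 75th percentile of its array, taken from the probe of highest mean signal for each gene. All 20 probes of the 10 genes were well above background on all 6 arrays, and none was saturated or dropped as an outlier. Probes differ in brightness for the same RNA, so levels of different genes were not ranked. The plot of the 10 genes by array shows each animal.

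**Figure D1:**
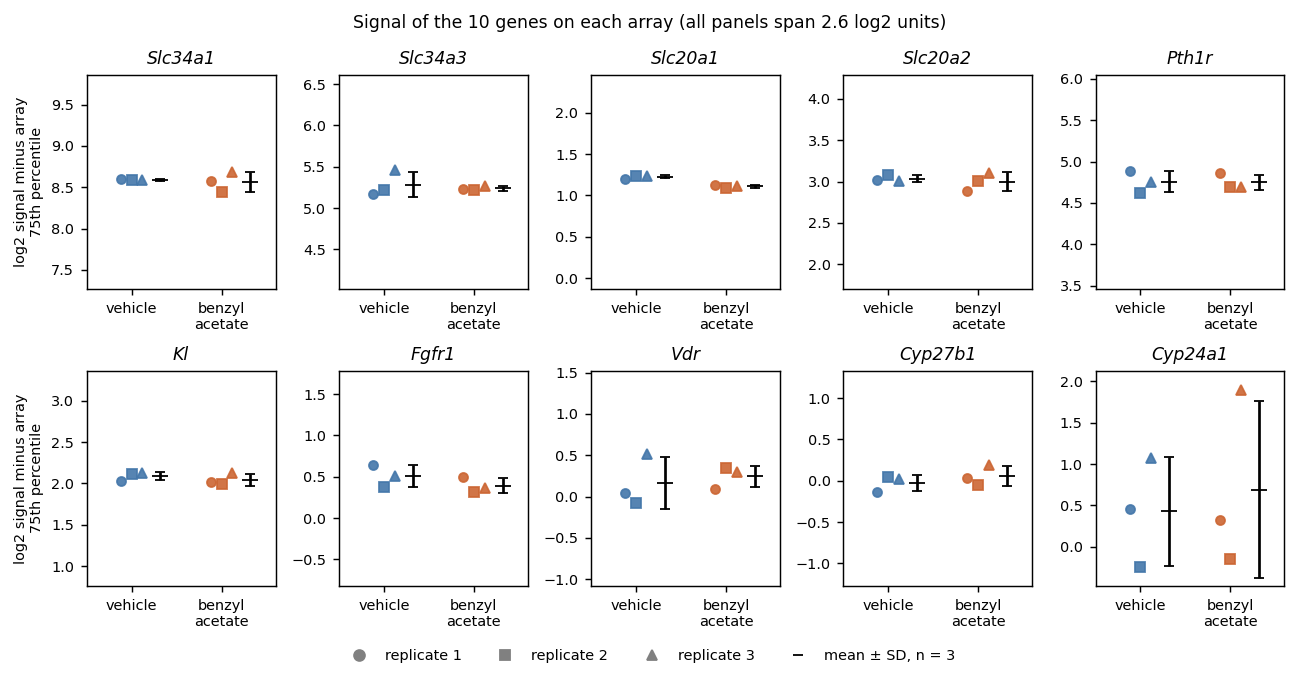
Log2 signal minus the array's 75th percentile for each of the 10 genes, with 1 point per array (3 vehicle, 3 benzyl acetate) and the mean ± SD beside them; every panel spans the same log2 range at its own level. The groups overlap in every panel but that of Slc20a1, and Cyp24a1 has the widest spread, from -0.24 to 1.89.

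Among the brush border cotransporters, Slc34a1 encodes NaPi-IIa, which carries the larger part of reabsorbed phosphate in the adult rodent. It stood at 8.60, 8.58 and 8.58 in vehicle replicates 1 to 3 and at 8.57, 8.44 and 8.68 with benzyl acetate. The treated arrays lay on both sides of the vehicle arrays. The difference was -0.022 (95% interval -0.22 to 0.18, limma adjusted p = 0.979). The interval of this probe reaches from 1.17-fold lower to 1.13-fold higher. Without benzyl acetate replicate 2 the difference was 0.041, and with normexp background correction it was 0.0053. A dimmer probe of the gene also overlapped between groups, with 6.50, 7.07 and 7.10 in vehicle and 6.93, 7.05 and 6.59 in treated arrays. Its order of arrays was not that of the brighter probe: benzyl acetate replicate 3 was highest on the brighter probe and second lowest on the dimmer one.

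Slc34a3 encodes NaPi-IIc, a second brush border cotransporter of the same family. Its signal was 5.18, 5.22 and 5.46 in vehicle and 5.23, 5.22 and 5.27 with benzyl acetate. Vehicle replicate 3 was the highest array, and the other 5 lay close together. The difference was -0.045 (-0.27 to 0.18; limma adjusted p = 0.951). Leaving out vehicle replicate 3 turned it to 0.040. The difference between Slc34a1 and Slc34a3 within an array, which does not depend on scaling, was 3.30 ± 0.16 (SD, n = 3) in vehicle and 3.33 ± 0.096 (SD, n = 3) with benzyl acetate. By these probes, the brighter one for Slc34a1, the balance of the 2 transcripts differed between groups by 0.023 log2, less than the SD of either group. It was not computed with the dimmer probe of Slc34a1, which ordered the arrays otherwise.

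The brighter probe of Slc34a1 was compared with the 12269 other genes with a symbol and a value on each array. Its pattern over the 6 arrays was very like those of Pnma2 (Pearson r = 0.998) and Ccdc68 (r = 0.993). All 3 were lowest in benzyl acetate replicate 2 and highest in benzyl acetate replicate 3. The dimmer probe of Slc34a1 did not have this order. With 6 arrays, 124 genes had an r over 0.9, so these values only describe the arrays.

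Slc20a1 encodes PiT-1, a sodium-phosphate cotransporter found in most cells and also used as a virus receptor. It was 1 of the 10 genes, and the only one, whose groups did not overlap. Of all genes tested 12.8% had groups that did not overlap, 5.31% with the treated arrays lower and 7.51% with them higher. The signal was 1.20, 1.23 and 1.24 in vehicle and 1.12, 1.09 and 1.12 with benzyl acetate, so every treated animal was below every vehicle animal. The difference was small, -0.11 (-0.26 to 0.030), or 1.08-fold, and missed the threshold (limma adjusted p = 0.772). The second probe gave 0.27, 0.26 and 0.31 in vehicle and 0.17, 0.13 and 0.039 in treated arrays, again without overlap. The spread within groups was very small for this gene, with an SD of 0.019 log2, lower than that of nearly all genes (percentile 0.279).

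Slc20a2 encodes PiT-2, the other widely expressed family member, which in kidney also reaches the brush border. Its values were 3.02, 3.08 and 3.01 in vehicle and 2.88, 3.01 and 3.11 with benzyl acetate. The highest and the lowest array were both treated. The difference was -0.037 (-0.24 to 0.16; limma adjusted p = 0.954). All 4 probes of Slc20a2 had a difference below 0, from -0.25 to -0.037, and the groups overlapped on each. Without benzyl acetate replicate 1 the difference of the brightest probe was 0.021.

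**Figure D2:**
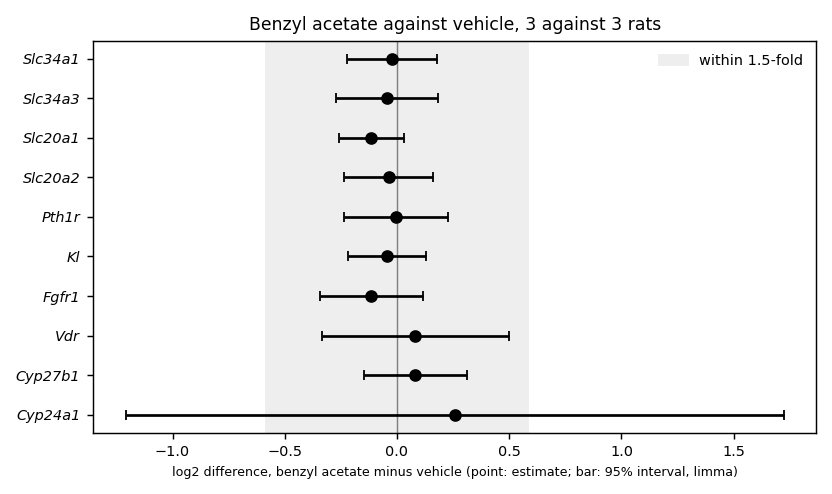
Log2 difference, benzyl acetate minus vehicle, for each of the 10 genes, with the 95% interval from limma as a bar and the range of a 1.5-fold difference shaded. Every interval crosses 0, and 9 of 10 lie inside the shaded range; that of Cyp24a1 runs from -1.21 to 1.72.

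The receptors came next. Pth1r encodes the receptor for parathyroid hormone, which in the proximal tubule drives the cotransporters out of the brush border. It stood at 4.88, 4.62 and 4.76 in vehicle and 4.86, 4.69 and 4.69 with benzyl acetate. The groups covered nearly the same range. The difference was -0.0061 (-0.24 to 0.23; limma adjusted p = 0.997), the smallest of the 10. Vehicle replicate 1, which lay on another slide than the other 5 arrays, was the highest, and without it the difference was 0.057.

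Kl encodes klotho, the co-receptor that gives FGF23 its renal target. The signal was 2.03, 2.11 and 2.12 in vehicle and 2.01, 1.99 and 2.13 with benzyl acetate. Treated replicates 1 and 2 were the lowest arrays and replicate 3 the highest. The difference was -0.043 (-0.22 to 0.13; limma adjusted p = 0.935), and a second probe gave -0.034. The upper and lower bounds are 1.09-fold and 1.16-fold.

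Fgfr1 encodes the receptor tyrosine kinase that binds FGF23 together with klotho. Its values were 0.64, 0.38 and 0.50 in vehicle and 0.49, 0.32 and 0.37 with benzyl acetate. Benzyl acetate replicates 2 and 3 were the lowest arrays, but benzyl acetate replicate 1 lay above vehicle replicate 2. The difference was -0.11 (-0.34 to 0.12; limma adjusted p = 0.847). All 3 probes of Fgfr1 gave a value below 0, at -0.11, -0.18 and -0.14, and the groups overlapped on each.

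Vdr encodes the nuclear receptor of active vitamin D. The signal was 0.045, -0.075 and 0.51 in vehicle and 0.095, 0.34 and 0.30 with benzyl acetate. On this probe vehicle replicate 3 was the highest array and vehicle replicate 2 the lowest, with all treated arrays between them. A dimmer probe was highest in benzyl acetate replicate 2 (-1.58) and lowest in vehicle replicate 2 (-2.35). Its groups overlapped as well, with a difference of 0.17. For the brighter probe the further values follow. The difference was 0.082 (-0.33 to 0.50; limma adjusted p = 0.951), 0.26 without vehicle replicate 3 and -0.036 without vehicle replicate 2. Vehicle replicate 3 also had the highest summed level of T and NK cell markers, 2.14 log2 against 0.75 to 1.12 on the other arrays. The lowest sum, 0.75, was that of benzyl acetate replicate 2, the second highest array for the brighter Vdr probe. Of the 6 markers listed, 4 were well above background on all 6 arrays, and Cd3e and Cd2 on 3. Each of these 4 had a difference below 0, as did 46.0% of all genes. Cd2 entered the test only through the vehicle group, where it was higher, so its sign is no further evidence. Cd3e was not tested. Vdr is also found in activated T cells, and the part of these markers in its value was not tested.

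The hydroxylases make and break down active vitamin D. Cyp27b1 encodes the 1-alpha-hydroxylase that makes it in the proximal tubule. The signal was -0.13, 0.045 and 0.022 in vehicle and 0.038, -0.051 and 0.19 with benzyl acetate, so the groups overlapped. The difference was 0.082 (-0.15 to 0.31; limma adjusted p = 0.892), and in all 16 alternative settings it stayed above 0, from 0.016 to 0.14. The interval reaches from 1.11-fold lower to 1.24-fold higher.

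Cyp24a1 encodes the 24-hydroxylase that inactivates vitamin D and is itself strongly induced by the hormone through Vdr. Its signal was 0.46, -0.24 and 1.07 in vehicle and 0.32, -0.15 and 1.89 with benzyl acetate. Each group held a low, a middle and a high animal, which were replicates 2, 1 and 3 in both groups. The difference was 0.26 (-1.21 to 1.72; limma adjusted p = 0.958), so a fall of up to 2.31-fold and a rise of up to 3.30-fold both lie in the interval. Its SD within groups, 0.89 log2, was higher than that of nearly all genes (percentile 98.6), while 8 of the 10 genes had an SD below the middle of all genes. The second probe put the 6 arrays in the same order, from -2.62 in vehicle replicate 2 to -0.67 in benzyl acetate replicate 3.

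Benzyl acetate replicate 3 set the upper end of Cyp24a1. Without it the difference was -0.35, and the other 5 arrays still covered a 2.49-fold range. That array also had the lowest 75th percentile of the signal, 883 against 988 to 1057 on the others. On the first principal component of all genes it stood at 50.1, against -24.4 to -0.23. The part of these array properties in its Cyp24a1 value was not tested. Without vehicle replicate 2, the lowest array, the difference of Cyp24a1 was -0.079.

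The within-array difference of Cyp24a1 and Cyp27b1 compares the transcripts of the enzymes for breakdown and synthesis, whose activity was not measured. It was 0.59, -0.29 and 1.05 in vehicle and 0.28, -0.10 and 1.70 with benzyl acetate. The arrays kept the spread of Cyp24a1, and the group means, 0.45 ± 0.68 (SD, n = 3) and 0.63 ± 0.95 (SD, n = 3), differed by 0.18, less than either SD.

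**Figure D3:**
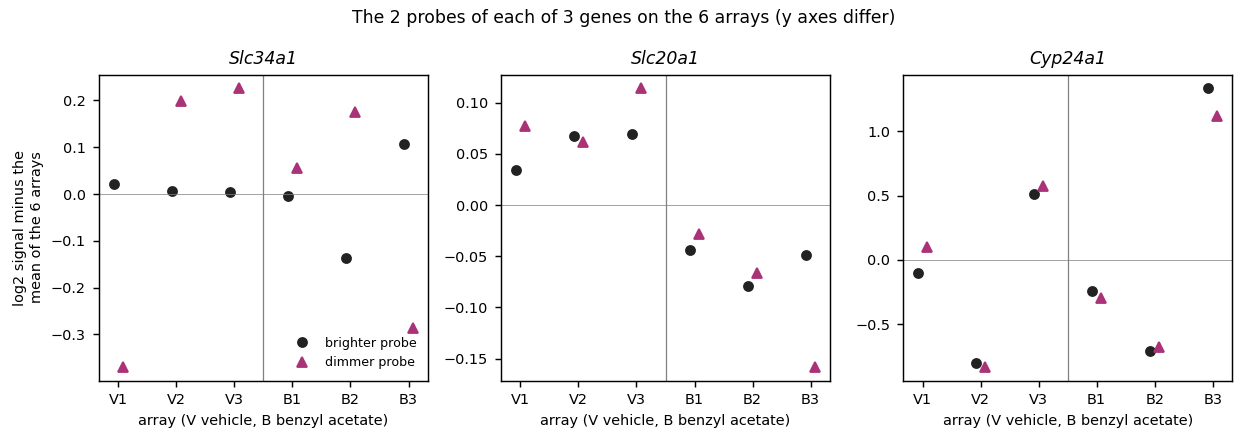
Log2 signal of the brighter (circles) and dimmer (triangles) probe of Slc34a1, Slc20a1 and Cyp24a1 on the 6 arrays, each minus its own mean over the arrays; V1 to V3 are vehicle and B1 to B3 benzyl acetate. The probes of Cyp24a1 give the same order of arrays, both probes of Slc20a1 are lower on each treated array, and those of Slc34a1 differ most on V1 and B3.

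Vitamin D acts on DNA through Vdr bound to repeats of a short half-site, of which AGGTCA and GGTTCA are common forms. The 250 bases before the start of 6 of the 10 genes were taken from RefSeq (GRCr8) and searched for both hexamers on both strands. The hexamers can share an end base. The 6 were Slc34a1, Slc34a3, Pth1r, Kl, Vdr and Cyp27b1. Cyp24a1, Slc20a1, Slc20a2 and Fgfr1 had no sequence in the promoter set used and were not searched. At least 1 was found in 3 of the 6, Slc34a3, Vdr and Cyp27b1, and in 22.2% of 33469 promoters (AGGTCA in 14.1% and GGTTCA in 9.77%). These 3 windows are shown, 5′ to 3′ on the gene's strand, because they hold a match. Capitals mark the half-site letters. The windows are chr3:28447998-28448247 on the minus strand, chr7:130916758-130917007 on the minus strand and chr7:64756376-64756625 on the plus strand. Only Slc34a3 held 2 matches, both of AGGTCA, 1 on each strand. No window held 2 matches on the same strand.
Slc34a3: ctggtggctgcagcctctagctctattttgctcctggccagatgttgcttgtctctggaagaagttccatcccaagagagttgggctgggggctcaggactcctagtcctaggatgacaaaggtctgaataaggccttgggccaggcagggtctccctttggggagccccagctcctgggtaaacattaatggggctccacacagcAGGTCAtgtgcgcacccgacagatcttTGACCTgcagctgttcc
Vdr: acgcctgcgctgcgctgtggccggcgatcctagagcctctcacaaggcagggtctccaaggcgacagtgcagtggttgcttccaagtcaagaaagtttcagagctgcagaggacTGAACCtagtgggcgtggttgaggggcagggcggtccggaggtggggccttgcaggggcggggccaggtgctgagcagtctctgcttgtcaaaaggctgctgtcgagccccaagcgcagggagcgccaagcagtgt
Cyp27b1: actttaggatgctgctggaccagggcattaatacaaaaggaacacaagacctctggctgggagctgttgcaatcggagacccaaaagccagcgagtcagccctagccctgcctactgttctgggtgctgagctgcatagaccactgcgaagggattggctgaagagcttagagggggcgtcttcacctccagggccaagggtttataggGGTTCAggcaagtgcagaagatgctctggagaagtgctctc
In Slc34a3 the matches begin 44 and 17 bases before the start, in Vdr 136 and in Cyp27b1 41. A match describes the letters and does not show a bound site. The differences of these 3 genes between groups, -0.045, 0.082 and 0.082 log2, each had an interval that included 0.

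Around the 10 genes, 69 others of phosphate, parathyroid hormone, FGF23, vitamin D and calcium control were listed by role, of which 66 had a probe and 55 were tested. None passed over all genes in limma, and at an unadjusted p under 0.05 there were 4 of the 55, Xpr1, Gnaq, S100g and Calb1, against 6.74% of all genes. Groups did not overlap for 4 of the 55 (Xpr1, Nherf2, S100g and Calb1), against 12.8%. The median difference of the 55 was 0.018 log2, against 0.012 for all genes. Of the 11 that had a probe but were not tested, 8 were not well above background on any array by any probe. These 8 were the hormones Pth and Fgf23, the bone genes Phex and Mepe, and Pth2r, Stc2, Sfrp4 and Fgf7. Slc34a2, the lung and gut cotransporter, Dmp1 and Atp2b4 were well above background on at most 4 arrays.

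Of the other phosphate transport genes, 0 of 6 tested passed in either direction, with 5 of 6 above 0 and a median of 0.079. Xpr1, which encodes the phosphate exporter, had the lowest p of the list and was -0.92, -0.83 and -0.72 in vehicle and -0.57, -0.35 and -0.46 with benzyl acetate. Every treated array was above every vehicle array. The difference was 0.36 (0.14 to 0.59; limma adjusted p = 0.660), and a dimmer probe, also without overlap, gave 0.17. The mitochondrial phosphate carrier Slc25a3 differed by -0.0029 and the anion carrier Slc17a3 by 0.030; these were the brightest of the list.

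Scaffold and trafficking genes, which hold NaPi-IIa at the membrane or carry it inward, had 0 of 7 called, 5 above 0 and a median of 0.029. All 7 intervals were inside 1.5-fold. Pdzk1, a PDZ scaffold of the brush border, differed by 0.029 (-0.13 to 0.19) and Ezr, which ties such scaffolds to actin, by -0.0075 (-0.18 to 0.17). Nherf2 had the lowest p, with 0.14 (-0.042 to 0.32; limma adjusted p = 0.778). The sign of Pdzk1 turned under median scaling (-0.00044) and normexp (-0.044).

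In the parathyroid hormone and calcium sensing list 0 of 10 were called, with 5 above 0 and 5 below and a median of 0.0075. Gnas, the stimulatory G protein alpha subunit downstream of Pth1r, differed by -0.0023 (-0.20 to 0.20), and Prkaca, the catalytic subunit of protein kinase A, by -0.028 (-0.18 to 0.12). Gnaq, the G protein alpha subunit that couples to phospholipase C, had the lowest p with 0.34 (0.024 to 0.66; limma adjusted p = 0.726). Its second probe gave -0.0069.

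The FGF23 list had 0 of 12 called, 6 above and 6 below 0, with a median of -0.013. Mapk3, the kinase ERK1, differed by -0.029 (-0.21 to 0.16), and Fam20c, a secretory kinase that acts on FGF23, by 0.027 (-0.25 to 0.31). The sign of Fam20c turned under median scaling (-0.0019). Egr1, an immediate early gene used as a readout of FGF23 signalling, had the lowest p, with -0.50 (-1.29 to 0.29; limma adjusted p = 0.810). It was -2.00 in vehicle replicate 1 and between -3.35 and -2.92 on the other 5 arrays, and without that array the difference was -0.13.

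Vitamin D supply and receptor partners had 0 of 9 called, 5 above 0 and a median of 0.018. Lrp2 and Cubn, which encode megalin and cubilin and take up filtered vitamin D with its carrier, differed by -0.027 (-0.19 to 0.13) and 0.037 (-0.26 to 0.34). Dhcr7, which encodes the enzyme that uses up the precursor of vitamin D, had the lowest p, with 0.22 (-0.099 to 0.54; limma adjusted p = 0.794).

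Renal calcium transport and vitamin D target genes had 0 of 7 called, 5 below 0 and a median of -0.096. The calcium-binding proteins stood on opposite sides. S100g, which encodes calbindin-D9k, was 2.65, 2.38 and 2.24 in vehicle and 3.07, 2.86 and 2.77 with benzyl acetate. Each treated array was above each vehicle array, by 0.48 on average (0.14 to 0.81; limma adjusted p = 0.674). Calb1, which encodes calbindin-D28k of the distal nephron and is named here after its values were seen, was 2.24, 2.21 and 2.13 in vehicle and 1.45, 1.88 and 2.03 with benzyl acetate. Each treated array was below each vehicle array, with a difference of -0.41 (-0.79 to -0.025; limma adjusted p = 0.726). Benzyl acetate replicate 1 was the lowest array, and without it the difference of Calb1 was -0.24. Neither gene passed, and each was measured by 1 probe. Atp2b1, the plasma membrane calcium pump, differed by -0.074 (-0.25 to 0.10).

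The last list held other phosphaturic and mineral factors, with 0 of 4 tested genes called, 3 above 0 and a median of 0.24. Enpp1, which makes pyrophosphate, had the lowest p, with 0.40 (-0.033 to 0.83; limma adjusted p = 0.751). Alpl, the alkaline phosphatase that breaks pyrophosphate down, differed by 0.10 (-0.19 to 0.40) and Spp1, osteopontin, by 0.38 (-0.045 to 0.81).

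**Figure D4:**
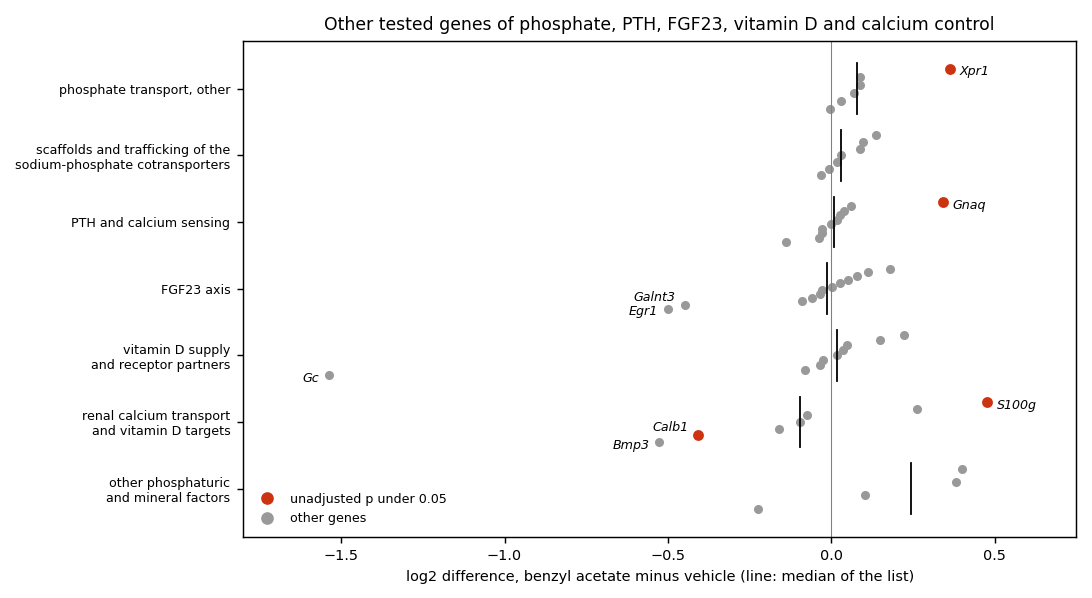
Log2 difference, benzyl acetate minus vehicle, of the 55 other tested genes (points), grouped by the 7 lists, with a line at the median of each list. Most points lie near 0; the 4 genes with an unadjusted p under 0.05 are red, and none of the 55 passed after adjustment over all genes.

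Markers of several nephron cell types were detected, which by itself does not identify cortex. All 6 listed markers of the proximal tubule, and both of the thick ascending limb, were well above background on all 6 arrays, as were the 3 podocyte markers. Some markers of other tissues were well above background on all 6 arrays as well, among them both of the liver (Alb and Apoa1), both of the inner medulla (Aqp4 and Slc14a2) and Tg of the thyroid, while Pth of the parathyroid was not on any. The log2 summed level of the proximal markers was 10.2 to 10.3 in vehicle and 10.3 to 10.4 with benzyl acetate. That of the thick ascending limb markers was 7.64 to 8.57 in vehicle and 8.05 to 8.17 with benzyl acetate. Between 69.0% and 72.0% of probes were well above background, at 70.5% to 72.0% in vehicle and 69.0% to 69.8% in treated arrays. The 75th percentile of the signal was 1003 to 1057 in vehicle and 883 to 990 in treated arrays, and the number of arrays limits the precision.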

How the data were processed

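Cy3-labelled cRNA from 6 renal cortex samples, 3 biological replicates in each group per the labels, was read on single-colour arrays. The deposited scanner tables hold intensity values, which the submitters' processing notes credit to Agilent Feature Extraction 10.7; per the file headers, this signal had its background subtracted and was not scaled across arrays. Flags for detection and outliers are other columns of 0 or 1, per the file headers. Values are log2 of that signal minus its 75th percentile over the 61537 probes of an array that are not controls, without outlier spots. Such scaling hides any change common to most transcripts. The deposited value table, also of intensity values, equals this scaled signal before log2 and served as an alternative.

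A probe entered when well above background on all 3 arrays of a group (42355 probes), and the probe of highest mean signal stood for a gene. Names came from matching accessions to RefSeq (GRCr8), with 28206 probes matched. The array grid names another build. A probe without a match was counted as a gene under its array name, so 12276 of the 31179 genes tested had a symbol. Limma 3.58.1 (R 4.3.3) was fitted to both groups, with Benjamini-Hochberg adjustment over 31179 genes at 0.05, and tested on simulated data. No coordinates are given but those of the RefSeq promoters.

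The 10 genes and the 7 lists were chosen with earlier results of these data known. The text names the 10 genes, in each list any gene past the threshold, the 2 brightest and the gene of lowest p, and the 3 genes most like Slc34a1, of which 1 is not reported here. Any other gene was picked once its values had been seen. The alternatives comprised a replicate or slide block, normexp (offset 50, on the median spot signal), quantile and median scaling, the value table, other filters and probe rules, flagged spots kept, and leaving out each array.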

Additional observations from a re-analysis of the deposited data

How the results depend on the processing

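Of the 10 genes, 0 passed in each of the 16 alternative settings, and 0 of the other pathway genes did. Over all genes 2 passed with normexp and 0 to 2 when 1 array was left out, with 2 without benzyl acetate replicate 1. The detection filter was the same in every fit that left out an array. With the replicate number as a block 0 of the 10, 0 pathway genes and 0 of all genes passed, with a lowest adjusted p of 0.672. Over all genes, same-numbered arrays did not deviate together (correlations of -0.11, 0.0075 and 0.0010). The labels give no pairing, but such correlations over so few arrays cannot exclude one. Cyp24a1 had the same order of replicate numbers in both groups. The slide block takes out vehicle replicate 1, so the slide and that animal cannot be told apart.

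Slc20a1, Kl, Fgfr1 and Cyp27b1 kept their sign in all 16 settings. Signs turned, in log2 difference, with the slide block for Pth1r (0.057), Slc17a3 (-0.0037), Fam20c (-0.038) and Cubn (-0.072). They also turned with normexp for Slc34a1 (0.0053) and Pdzk1 (-0.044), with median scaling for Pdzk1 (-0.00044) and Fam20c (-0.0019), and with the mean of a gene's probes for Slc25a3 (0.0043), Prkaca (0.071) and Fam20c (-0.017). Leaving out 1 array gave ranges across 0 for Slc34a1 (-0.081 to 0.041), Slc34a3 (-0.099 to 0.040), Slc20a2 (-0.092 to 0.021), Pth1r (-0.071 to 0.057), Vdr (-0.036 to 0.26) and Cyp24a1 (-0.35 to 0.68). The same held for Slc25a3 (-0.029 to 0.016), Slc17a3 (-0.029 to 0.091), Ezr (-0.055 to 0.026), Gnas (-0.064 to 0.055), Mapk3 (-0.081 to 0.017), Fam20c (-0.038 to 0.13), Lrp2 (-0.045 to 0.0047) and Cubn (-0.072 to 0.14). The cause was not tested. No scaling moved the median of all genes by over 0.1 log2.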

Other observations

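Cyp24a1 was highest in benzyl acetate replicate 3 and vehicle replicate 3, and some genes of the pathway shared that pair of top arrays. This was noticed in the data. It held for 3 of the 10 genes (Cyp24a1, Kl and Slc34a3) and for 7 of the 55 other pathway genes, or 12.7%, against 8.09% of all genes with a value on each array. The 7 were Arrb2, Cyp27a1, Cyp2r1, Gnas, Slc17a4, Slc25a3 and Trpv6, which came from 4 of the lists, and no theme was tested. Cyp24a1, which prompted the count, is itself among the 3. Trpv6, an epithelial calcium channel, stood at -4.72 in vehicle replicate 3 and -4.49 in benzyl acetate replicate 3, and at -5.32 to -4.77 elsewhere, though it is a dim probe.

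Vehicle replicate 1, the array on another slide than the rest, stood apart for some genes of mineral metabolism. These were noticed in the data, and the share of all genes that stood apart on it was not counted. Its summed thick ascending limb markers were also the highest, at 8.57 log2 against 7.64 to 8.41 on the other arrays. The part of these markers in the values was not tested. Egr1 is given above, and Casr, the calcium-sensing receptor, was 4.16 on that array and 3.53 to 3.69 on the other 5. Galnt3, which encodes the glycosyltransferase that protects FGF23 from cleavage, was 2.65 in vehicle replicate 1 and 0.70 to 1.07 on the other 5 arrays, and a second probe gave -2.52 against -4.70 to -4.12. Gc, which encodes the vitamin D binding protein made mainly in liver, was low in an animal of each group. It stood at -3.07 in vehicle replicate 3 and -5.01 in benzyl acetate replicate 3, against -0.14 and 0.46 for the remaining vehicle animals and -1.09 and -1.26 for the remaining treated ones. The liver markers Alb and Apoa1, summed, were lowest in benzyl acetate replicate 3 too, at -2.89, but next lowest in vehicle replicate 2, at -1.91.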
